A study of Homo sapiens with 6 samples.

Results

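TGF-beta signalling was described in K1 cells through 10 genes: the ligands TGFB1 and TGFB2, the receptors TGFBR1 and TGFBR2, the SMAD proteins SMAD2, SMAD3, SMAD4 and SMAD7, and the SMAD corepressors SKI and SKIL. The genes were taken by their symbol, each matched 1 row of every table, and they are 10 of the 19684 genes listed with an Ensembl identifier. K1 is an established human line of papillary thyroid carcinoma cells. The cells were transfected either with a negative control siRNA (NC) or with an siRNA labelled si-NEAT1_2, directed at the long isoform of the noncoding RNA NEAT1, and mRNA-seq was performed to look for genes downstream of NEAT1_2. There were 3 NC and 3 si-NEAT1_2 libraries, and 1 further table with a single value per group. NEAT1 itself was not analysed here, and how far it was knocked down in each library is not measured by these values. The labels give neither the time after transfection nor whether the 3 replicates came from separate cultures, so p-values measure only the spread between these libraries.

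In this pathway a dimeric ligand brings a type II receptor (TGFBR2) and a type I receptor (TGFBR1) together, and the type II receptor phosphorylates the type I receptor. The activated type I receptor phosphorylates SMAD2 and SMAD3, which join SMAD4, enter the nucleus and regulate target genes. SMAD7 blocks the receptor and is itself a target, while SKI and SKIL hold SMAD complexes in a repressed state. In the thyroid, TGF-beta restrains the growth of normal follicular cells, and in carcinomas it is known for promoting epithelial-mesenchymal transition and invasion.

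The total expected count per library ranged from 22798631 to 27066025. The first principal component of all genes held 55.1% of the variance and ran from -43.3 in NC replicate 2 to 52.7 in si-NEAT1_2 replicate 2, with the other 4 libraries between -15.0 and 15.9. The description labels carry a code (L2, L3 or L4) that is not explained. L2 was given to NC replicates 2 and 3 and si-NEAT1_2 replicate 2, and L3 to NC replicate 1 and si-NEAT1_2 replicate 3. Only si-NEAT1_2 replicate 1 had L4. Of the 8 thyroid markers, 4 had an FPKM (fragments per kilobase of transcript, scaled to the library size) of at least 1 in every library. PAX8, a thyroid transcription factor, was listed at 113 to 169, whereas NKX2-1, TSHR and SLC5A5 did not exceed 0.08, so that part of the follicular programme was near 0 in K1. Of the 5 epithelial markers 3 reached an FPKM of 1, with CDH1 at 0.38 or less. Among 6 markers of other cells, CD68 alone did so, and the leukocyte and endothelial markers PTPRC, PECAM1 and CD3E did not exceed 0.12. The summed FPKM of these 6 markers was 12.9 to 14.2 in NC and 15.7 to 20.7 in si-NEAT1_2 libraries. CD68, at 11.6 to 13.2 in NC and 14.9 to 19.6 in si-NEAT1_2, made up this difference, and the other 5 markers were each at 0.8 or less. Its part in the results was not tested.

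All 10 genes were expressed above the filter for low counts and were tested, together with 13109 features in all. The level was given as TMM-normalized CPM (counts scaled to the library size, after edgeR's adjustment for library composition), and the groups were compared with edgeR's quasi-likelihood test. The methods of the study set a fold change of 2 or more with a false discovery rate under 0.05, taken here as an adjusted p (Benjamini-Hochberg). Its figure legend for the changed mRNAs gives P under 0.05 instead. At the thresholds of the methods, 0 of the 10 genes were called higher (background 0% of all genes tested) and 0 were called lower (background 0%). The lowest adjusted p of all genes tested was 0.0659. A p under 0.05 before adjustment was found for 3165 genes. Of the 10 genes, TGFB1 alone was higher at an unadjusted p under 0.05 (background 11.2%), and TGFB2, SMAD4 and SKIL were lower at that level (background 12.9%). These 4 of 10 stand beside 24.1% of all genes in either direction. The values of both groups were without overlap for 1 gene that was higher, TGFB1 (background 15.4%), and for 3 that were lower, TGFB2, SMAD2 and SMAD4 (background 14.1%). By their means 2 genes were higher and 8 lower, with a median log2 fold change of -0.25 against 0.01 for all genes tested, of which 49.1% were lower.

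**Figure D1:**
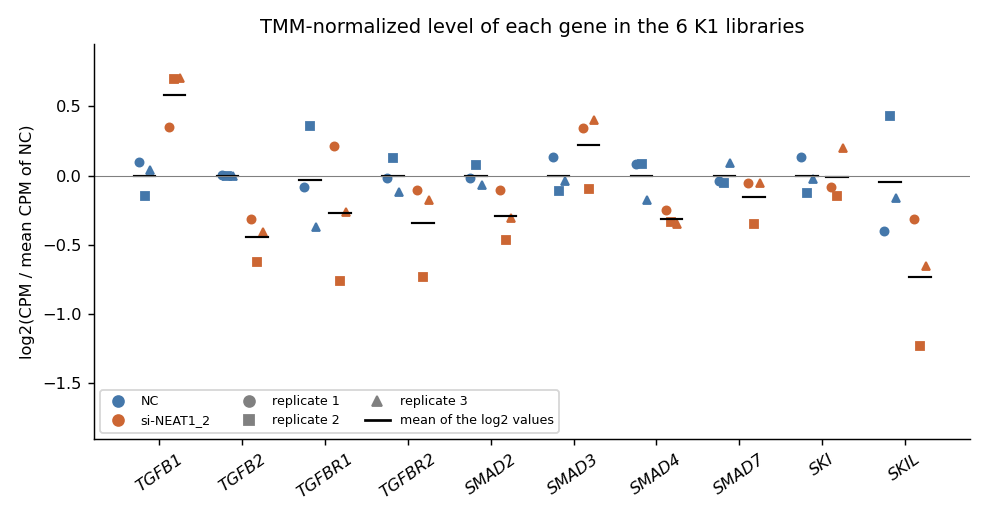
Level of each gene in each of the 6 libraries, as the log2 ratio of its TMM-normalized CPM to the mean CPM of the 3 NC libraries (vertical axis), with genes on the horizontal axis. Blue symbols are NC and orange symbols si-NEAT1_2, the shape gives the replicate, and the bar is the mean of the log2 values. For TGFB1 all 3 si-NEAT1_2 libraries lie above all NC libraries, for TGFB2, SMAD2 and SMAD4 they lie below, and NC replicate 2 and si-NEAT1_2 replicate 2 are the extremes of SKIL.

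Promoter sequences were taken from RefSeq (GRCh38.p14), with 250 bases before and 50 bases after each transcription start. Windows were matched for 9 of the 10 genes, 24 windows in all. They were searched on both strands for the SMAD-binding box CAGAC and for the palindrome GTCTAGAC, which does not contain the box. The box was found in 11 of the 24 windows (45.8%) and in 45.3% of all 34943 windows of the same length, and the palindrome in 0 of the 24 and in 0.203% of all. The 3 windows below are those of the genes with the highest and the lowest log2 fold change, TGFB1 and SKIL, and of TGFB2, the second ligand. The TGFB1 window is on the minus strand at chr19:41353873-41354172 and holds 77.3% G and C, the TGFB2 window on the plus strand at chr1:218345086-218345385 with 51.7%, and the SKIL window on the plus strand at chr3:170357465-170357764 with 79.0%. Capitals mark the box, which reads GTCTG where it is on the other strand. The TGFB1 window has 0 boxes, the TGFB2 window 2 and the SKIL window 1, and 13.1% of all windows hold 2 or more.
TGFB1: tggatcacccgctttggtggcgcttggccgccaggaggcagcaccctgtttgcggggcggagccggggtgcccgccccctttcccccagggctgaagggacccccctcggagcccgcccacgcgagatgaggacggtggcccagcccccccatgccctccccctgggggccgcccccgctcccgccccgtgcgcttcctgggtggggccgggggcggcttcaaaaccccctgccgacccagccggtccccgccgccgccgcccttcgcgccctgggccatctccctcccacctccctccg
TGFB2: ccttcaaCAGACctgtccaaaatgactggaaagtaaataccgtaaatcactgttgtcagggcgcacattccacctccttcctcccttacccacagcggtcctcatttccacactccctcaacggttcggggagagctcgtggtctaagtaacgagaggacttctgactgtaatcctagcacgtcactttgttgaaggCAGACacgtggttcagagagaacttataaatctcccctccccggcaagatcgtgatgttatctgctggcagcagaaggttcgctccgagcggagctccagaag
SKIL: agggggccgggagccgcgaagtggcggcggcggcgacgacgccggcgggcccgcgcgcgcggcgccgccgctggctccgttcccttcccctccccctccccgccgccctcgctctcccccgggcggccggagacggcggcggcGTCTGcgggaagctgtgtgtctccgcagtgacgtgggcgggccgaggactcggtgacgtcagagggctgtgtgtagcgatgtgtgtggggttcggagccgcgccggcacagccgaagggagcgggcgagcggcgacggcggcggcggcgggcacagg

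TGFB1 encodes the ligand TGF-beta 1, secreted in a latent form and the most widely studied of the family. The gene (ENSG00000105329) is protein-coding and occupies bases 41301587 to 41353911 of chromosome 19 in GRCh38, minus strand. Its level was 77.4, 65.5 and 74.3 CPM in replicates 1 to 3 of NC and 92.3, 117.6 and 117.9 CPM in those of si-NEAT1_2. Every si-NEAT1_2 library was above every NC library, with replicate 1 the lowest of its group. The mean was 72.4 ± 6.19 CPM in NC and 109 ± 14.7 CPM in si-NEAT1_2 (SD, n = 3 each), 51.0% higher. The log2 fold change was 0.59 (SE 0.14), with an adjusted p of 0.170 by edgeR's quasi-likelihood test and an unadjusted p of 0.00132, the lowest of the 10 genes. A two-sided exact permutation test gave p = 0.10, the smallest that 3 libraries against 3 allow. Within the label codes that hold both groups, the difference in log2 CPM was 0.75 for L2 and 0.61 for L3. Each of these rests on 1 si-NEAT1_2 library, and replicate 1, the lowest of that group, is alone in L4. Without si-NEAT1_2 replicate 1 the adjusted p of edgeR was 0.0493 at a log2 fold change of 0.69, which is below a fold of 2.

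TGFB2 encodes a second ligand of the same type, which depends more on the co-receptor betaglycan for binding. The gene (ENSG00000092969) is on the plus strand of chromosome 1 from 218346235 to 218444619. The 3 NC libraries were nearly equal, at 21.0, 20.9 and 20.9 CPM, and the si-NEAT1_2 libraries had 16.9, 13.6 and 15.8 CPM. All si-NEAT1_2 values were below all NC values. The mean was 20.9 ± 0.0532 CPM in NC and 15.4 ± 1.67 CPM in si-NEAT1_2 (SD, n = 3 each), 26.2% lower by the means. The NC values rest on counts of 575, 492 and 539, so this NC SD is smaller than counting error alone and understates the uncertainty. The log2 fold change was -0.44 (SE 0.15), with an adjusted p of 0.170 (edgeR, unadjusted p = 0.0128) and an exact permutation p of 0.10. The difference was -0.62 within L2 and -0.41 within L3 on the log2 scale, each from 1 si-NEAT1_2 library.

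The ligands thus had opposite signs in the same libraries, and their ratio was calculated within each library. All 5 ratios given here were chosen after the values were seen, and the adjustment over them does not cover that choice. The ratio of TGFB1 to TGFB2 CPM was 3.69, 3.14 and 3.56 in replicates 1 to 3 of NC, and 5.47, 8.65 and 7.46 in those of si-NEAT1_2. The groups did not overlap. This was fixed beforehand, since TGFB1 was above and TGFB2 below all NC values in every si-NEAT1_2 library. The permutation p of the ratio, 0.10, followed from it and adds nothing to the values of the single genes. The spread was wider in si-NEAT1_2. The mean was 3.46 ± 0.289 in NC and 7.19 ± 1.61 in si-NEAT1_2 (exact permutation p = 0.10, 0.167 after Benjamini-Hochberg adjustment over the 5 ratios calculated). TGFB1 has the transcript with the highest and TGFB2 one of the lower GC contents of the 10, and the relation of fold change to GC content is given further on.

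**Figure D2:**
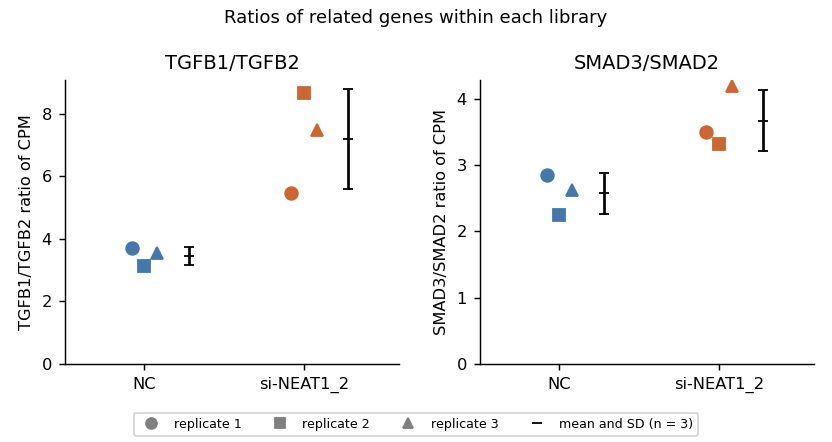
Ratio of TGFB1 to TGFB2 CPM (left) and of SMAD3 to SMAD2 CPM (right) in each library, on linear axes from 0. Symbols are the replicates of NC (blue) and si-NEAT1_2 (orange), and black bars give the mean and SD (n = 3). The si-NEAT1_2 values lie above the NC values in both, from 5.47 against at most 3.69 and from 3.32 against at most 2.84. On the left this follows from the values of the single genes.

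TGFBR2, the type II receptor with constitutive kinase activity, had the highest mean FPKM of the 10 genes in the NC and in the si-NEAT1_2 libraries. It (ENSG00000163513) lies on the plus strand of chromosome 3 from 30606502 to 30694142. Its level was 309.5, 341.8 and 287.8 CPM in NC and 291, 188.2 and 276.8 CPM in si-NEAT1_2 replicates 1 to 3. The groups overlapped, since si-NEAT1_2 replicate 1 was above NC replicate 3, and replicate 2 was far below the other libraries. The mean was 313 ± 27.2 CPM in NC and 252 ± 55.7 CPM in si-NEAT1_2 (log2 fold change -0.31, SE 0.17, adjusted p = 0.260 by edgeR, exact permutation p = 0.20). Without si-NEAT1_2 replicate 2 the log2 fold change was -0.15.

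TGFBR1, the type I receptor that phosphorylates SMAD2 and SMAD3, had one of the lowest levels. It (ENSG00000106799) lies on the plus strand of chromosome 9 from 99104038 to 99154192. Its level was 16.6, 22.5 and 13.6 CPM in NC and 20.4, 10.4 and 14.7 CPM in si-NEAT1_2 replicates 1 to 3. The groups overlapped widely, and NC replicate 2 and si-NEAT1_2 replicate 2 were again the extremes. The mean was 17.6 ± 4.55 CPM in NC and 15.1 ± 5.02 CPM in si-NEAT1_2, with a log2 fold change of -0.21 (SE 0.25, adjusted p = 0.609 by edgeR, exact permutation p = 0.60). Without NC replicate 2 the log2 fold change was 0.001, so the sign rested on that library. The ratio of TGFBR2 to TGFBR1 CPM was 18.3 ± 3.01 in NC and 17.1 ± 2.46 in si-NEAT1_2, and its groups overlapped (exact permutation p = 0.60, adjusted over the 5 ratios 0.60).

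SMAD2, a receptor-activated SMAD that binds DNA poorly by itself, occupies bases 47808957 to 47931146 of chromosome 18, minus strand (ENSG00000175387). Its level was 72.3, 77.1 and 69.5 CPM in NC and 68.0, 52.8 and 59.1 CPM in si-NEAT1_2 replicates 1 to 3. The si-NEAT1_2 values were all below the NC values, although replicate 1 was close to NC replicate 3. The mean was 73.0 ± 3.804 CPM in NC and 59.96 ± 7.61 CPM in si-NEAT1_2 (log2 fold change -0.28, SE 0.13, adjusted p = 0.217 by edgeR, exact permutation p = 0.10).

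SMAD3, the receptor-activated SMAD that binds the CAGAC box directly, lies on the plus strand of chromosome 15 from 67063763 to 67195195 (ENSG00000166949). Its level was 205.5, 173 and 182.4 CPM in NC and 237.4, 175.2 and 247.5 CPM in si-NEAT1_2 replicates 1 to 3. Replicates 1 and 3 of si-NEAT1_2 were above all NC libraries, whereas replicate 2 was near the lowest NC value. The mean was 187 ± 16.7 CPM in NC and 220.1 ± 39.1 CPM in si-NEAT1_2 (log2 fold change 0.23, SE 0.15, adjusted p = 0.334 by edgeR, exact permutation p = 0.30). It was the gene besides TGFB1 with a higher mean in si-NEAT1_2.

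The ratio of SMAD3 to SMAD2 CPM was 2.84, 2.25 and 2.62 in replicates 1 to 3 of NC, and 3.49, 3.32 and 4.19 in those of si-NEAT1_2. Here the groups did not overlap, since si-NEAT1_2 replicate 2, which had the low SMAD3 value, had the lowest SMAD2 value as well. The mean ratio was 2.57 ± 0.303 in NC and 3.67 ± 0.461 in si-NEAT1_2 (exact permutation p = 0.10, adjusted over the 5 ratios 0.167). This pair too was chosen after the values were seen. CPM is not scaled for length, so this ratio compares the groups and not the levels of the genes. On the FPKM scale, which is scaled for length, the ratio was 1.10 ± 0.126 in NC and 1.54 ± 0.270 in si-NEAT1_2.

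SMAD4, the common partner of the receptor-activated SMADs, lies on the plus strand of chromosome 18 from 51028394 to 51085045 (ENSG00000141646). Its level was 65.0, 65.0 and 54.4 CPM in NC and 51.7, 48.7 and 48.3 CPM in si-NEAT1_2 replicates 1 to 3. All si-NEAT1_2 values were below all NC values, and their spread was narrow. The mean was 61.5 ± 6.16 CPM in NC and 49.6 ± 1.89 CPM in si-NEAT1_2 (log2 fold change -0.31, SE 0.13, adjusted p = 0.186 by edgeR, unadjusted p = 0.0346, exact permutation p = 0.10). The ratio of SMAD3 to SMAD4 CPM was 3.06 ± 0.359 in NC and 4.44 ± 0.774 in si-NEAT1_2, without overlap (exact permutation p = 0.10, adjusted over the 5 ratios 0.167). These ratios are not corrected for GC content, and with that correction the log2 fold changes of SMAD3 and SMAD4 were 0.39 and 0.28.

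SMAD7, the inhibitory SMAD that recruits ubiquitin ligases to the receptor, occupies bases 48919853 to 48952052 of chromosome 18, minus strand (ENSG00000101665). Its level was 90.2, 89.3 and 99.0 CPM in NC and 89.6, 72.8 and 89.5 CPM in si-NEAT1_2 replicates 1 to 3. Replicates 1 and 3 of si-NEAT1_2 were close to the NC libraries, and replicate 2 was lower. The mean was 92.8 ± 5.33 CPM in NC and 84.0 ± 9.67 CPM in si-NEAT1_2, with a log2 fold change of -0.14 (SE 0.13, adjusted p = 0.489 by edgeR, exact permutation p = 0.30). It was -0.061 without si-NEAT1_2 replicate 2 and -0.30 with limma on log2(FPKM + 0.1).

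SKI, a corepressor that binds SMAD complexes on DNA, lies on the plus strand of chromosome 1 from 2228695 to 2310119 (ENSG00000157933). Its level was 132.2, 110.5 and 118.2 CPM in NC and 113.4, 108.9 and 137.9 CPM in si-NEAT1_2 replicates 1 to 3. The groups overlapped over nearly their whole range. The means were almost equal, 120.3 ± 11.1 CPM in NC and 120.1 ± 15.6 CPM in si-NEAT1_2, with a log2 fold change of -0.0022 (SE 0.14, adjusted p = 0.993 by edgeR). Leaving out single libraries moved its sign both ways.

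SKIL, the relative of SKI also known as SnoN, is degraded when TGF-beta is received and is transcribed anew as a target. It (ENSG00000136603) lies on the plus strand of chromosome 3 from 170357678 to 170396835. Its level was 33.5, 59.2 and 39.4 CPM in NC and 35.4, 18.8 and 27.96 CPM in si-NEAT1_2 replicates 1 to 3. The groups overlapped because si-NEAT1_2 replicate 1 was above NC replicate 1, and the extremes were NC replicate 2 and si-NEAT1_2 replicate 2. The mean was 44.0 ± 13.5 CPM in NC and 27.4 ± 8.32 CPM in si-NEAT1_2, 37.8% lower by the means. The log2 fold change of -0.68 (SE 0.25) was the lowest of the 10 genes, with an adjusted p of 0.172 (edgeR, unadjusted p = 0.0200) and an exact permutation p of 0.20. The difference in log2 CPM was -1.36 within L2, the code of both extreme libraries, and -0.26 within L3, each from 1 si-NEAT1_2 library. On leaving out each library in turn the log2 fold change was -0.92 to -0.42. The ratio of SKI to SKIL CPM was 2.94 ± 1.05 in NC and 4.65 ± 1.32 in si-NEAT1_2, with overlap (exact permutation p = 0.20, adjusted over the 5 ratios 0.25).

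Across the 6 libraries several genes moved with the first principal component of all genes. As a description over libraries that share this axis, Pearson's r with it was -0.99 for SKIL, -0.97 for SMAD2, -0.94 for TGFBR2 and 0.91 for TGFB1, whereas SMAD3 had 0.13 and SKI 0.02. Between genes, r of log2 CPM was 0.93 for SMAD2 with SKIL, 0.92 for SMAD2 with TGFBR2 and -0.94 for TGFB1 with both TGFB2 and SMAD2. SMAD3 had its largest r with SKI (0.64) and SMAD7 its largest with TGFBR2 (0.82). The part of the first component in these values was not tested.

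Fold changes over all genes followed the GC content and the length of the transcript. Over the 12581 Ensembl genes tested, Spearman's rho of the log2 fold change was 0.646 with GC content and -0.511 with length, and over the 10 genes rho with GC content was 0.806. The GC content was 63.5% for TGFB1, above that of 92.8% of the genes tested, and 33.4% for SKIL, above that of 0.215%. All 5 genes with a GC content under 45% (SKIL, TGFBR1, TGFB2, SMAD4 and SMAD2) had the lower mean in si-NEAT1_2. Of the 5 genes over 45%, TGFBR2, SMAD7 and SKI had the lower mean as well. For all genes, the upper quartile of the log2 fold change was -0.29 at a GC content of 32% to 36%. It was -0.21 at 36% to 40% and -0.05 at 40% to 44%. The median GC content of the genes tested was 49.1%.

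When the trends with GC content and length were removed from each library before edgeR's test, rho with GC content was 0.000476 over all genes and -0.0545 over the 10 genes. The value over all genes follows from the removal, since the trends were fitted to the same genes, and is no test of the correction. The log2 fold change of SKIL was then -0.03 (adjusted p = 0.911), and that of TGFB2 was 0.03 (adjusted p = 0.946). TGFB2, TGFBR1 (0.29) and SMAD4 (0.28) changed sign, and 6 of the 10 genes were closer to 0. TGFB1 had a log2 fold change of 0.33 (SE 0.08, adjusted p = 0.120), and SMAD3 had 0.39 (SE 0.08, adjusted p = 0.0989), larger than before. SMAD2 had -0.11, TGFBR2 -0.16, SMAD7 -0.23 and SKI -0.04. Of the 10 genes 5 were higher and 5 lower, 3 (TGFB1, SMAD3 and SMAD7) had an unadjusted p under 0.05 beside 15.9% of all genes, and 0 were called. For 4 genes the annotated transcript behind the GC content was far longer than every length behind the FPKM, so their corrected values are less certain. It had 6247 bases for SMAD3 (4305 to 5256 behind the FPKM) and 4428 for SMAD7 (2885 to 3567). For SMAD4 it had 8495 bases (2914 to 4365) and for SKIL 7182 (4587 to 5583). TGFBR2 differed by a few bases only (4621 against 4614 to 4617). The 5720 bases of TGFBR1 lay within a wide range (3256 to 6419), so its corrected value is less certain too.

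**Figure D3:**
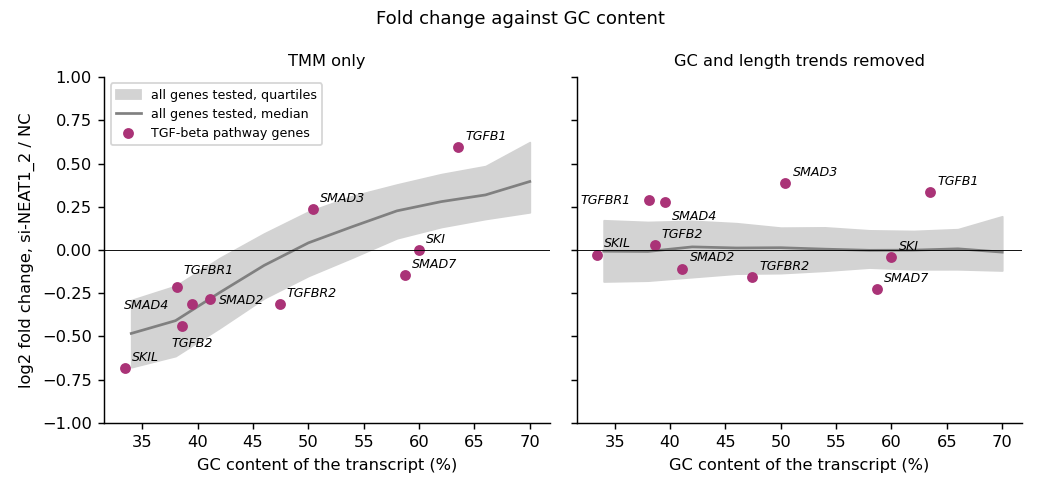
Log2 fold change of si-NEAT1_2 over NC (vertical axis) against the GC content of the transcript in percent (horizontal axis), with TMM alone (left) and after removal of the trends with GC content and length (right). Purple points are the 10 genes, the grey line is the median and the grey area spans the quartiles of all genes tested in bins of GC content. On the left the values range from SKIL (33.4%, -0.68) to TGFB1 (63.5%, 0.59), but TGFBR2 (-0.31), SMAD7 (-0.14) and SKI (-0.0022) lie below the grey area. On the right SMAD3 (0.39) and TGFB1 (0.33) have the highest values.

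Levels were compared between genes by FPKM, which is scaled for length. In NC the order was TGFBR2 (69.3 ± 6.61), SMAD3 (41.3 ± 2.92), SMAD2 (37.6 ± 2.09), SMAD7 (31.2 ± 0.437), TGFB1 (26.7 ± 2.01), SKI (21.9 ± 1.80), SMAD4 (17.4 ± 1.76), SKIL (9.39 ± 3.43), TGFBR1 (4.79 ± 1.80) and TGFB2 (4.29 ± 0.0322), each with SD and n = 3. The ranges of neighbours overlapped for SMAD3 with SMAD2 and for TGFBR1 with TGFB2. TGFB1 was thus 6.22 ± 0.514 times as high as TGFB2 in NC, and TGFBR2 was 15.6 ± 4.65 times as high as TGFBR1. In si-NEAT1_2, TGFB1 (38.7 ± 4.23) stood above SMAD2 (29.5 ± 5.41) without overlap, in the third place after TGFBR2 (53.8 ± 14.2) and SMAD3 (45.9 ± 13.6). The ranges of TGFBR2, SMAD3 and TGFB1 overlapped with each other, and in replicate 2 TGFB1 (39.4) was above TGFBR2 (37.6). At the lower end SKIL (5.26 ± 1.99), TGFB2 (3.05 ± 0.480) and TGFBR1 (2.83 ± 1.34) overlapped as neighbours.

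FPKM and counts of TGFBR1 differed in spread. Its FPKM ranged from 1.49 to 6.79 over the 6 libraries, and the transcript length that follows from its count and FPKM ranged from 3256 to 6419 bases, 1.97-fold. For SMAD4 this length ranged from 2914 to 4365 bases, 1.5-fold, whereas it was nearly constant for TGFB1 (2753 to 2769 bases), TGFB2, TGFBR2 and SKI. It varied less for SMAD7 (1.24-fold), SMAD3 (1.22-fold), SKIL (1.22-fold) and SMAD2 (1.1-fold). For TGFBR1 and SMAD4, and to a lesser degree these genes, the FPKM of a library therefore depends on this length besides the count. The tests above used counts.

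The other genes of the pathway were counted in 4 lists, with 66 genes tested. Of these, 0 were called and 20 (30.3%) had an unadjusted p under 0.05, 10 higher and 10 lower, beside 24.1% of all genes. Of the ligands and latency genes 13 of 18 were tested, 3 were higher and 2 lower at that level, and the median log2 fold change was 0.08, or -0.08 without si-NEAT1_2 replicate 3. Of the 11 receptors and co-receptors, all tested, 0 were higher and 2 lower, with a median of 0.05, or -0.09 without NC replicate 2. Of 19 other SMADs and SMAD regulators, 2 were higher and 4 lower, and 14 had the lower mean, with a median of -0.31 that was 0.01 after the correction for GC content and length and -0.14 without si-NEAT1_2 replicate 2. Of the target genes 23 of 24 were tested, 5 were higher and 2 lower, and 17 had the higher and 6 the lower mean, with a median of 0.07 that was -0.02 after the correction.

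THBS1, the matrix protein thrombospondin 1 that activates latent TGF-beta and is also a target, was named among the target genes. Its mean was 2127 ± 226 CPM in NC and 1349 ± 195 CPM in si-NEAT1_2, without overlap (log2 fold change -0.66, adjusted p = 0.170 by edgeR, -0.31 with the correction for the GC and length trends). Among the ligands, GDF15, a distant member of the family induced by stress, had 28.04 ± 2.14 CPM in NC and 44.6 ± 8.56 CPM in si-NEAT1_2 without overlap (0.67, adjusted p = 0.170 by edgeR). INHBA, the subunit of activin A, had 75.6 ± 19.3 and 51.1 ± 6.35 CPM with overlap (-0.56, adjusted p = 0.170 by edgeR). With the correction GDF15 had 0.23 and INHBA -0.03.

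Both receptors named by the lowest p bind bone morphogenetic proteins. BMPR2, a type II receptor, had 96.9 ± 23.4 CPM in NC and 61.9 ± 19.4 CPM in si-NEAT1_2 with overlap (log2 fold change -0.65, adjusted p = 0.172 by edgeR), and BMPR1A, a type I receptor, had 44.97 ± 4.91 and 35.4 ± 5.11 CPM without overlap (-0.34, adjusted p = 0.199 by edgeR). With the correction both were at or above 0, at 0.02 and 0.25. Of the SMAD regulators, TGIF1, a corepressor of SMAD2, had 61.6 ± 1.90 and 85.9 ± 9.63 CPM without overlap (0.48, adjusted p = 0.170 by edgeR). SMURF2, a ubiquitin ligase that works with SMAD7, had 61.8 ± 5.84 and 44.4 ± 5.73 CPM without overlap (-0.48, adjusted p = 0.170 by edgeR), and the log2 fold change was 0.15 for TGIF1 and -0.33 for SMURF2 with the correction.

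**Figure D4:**
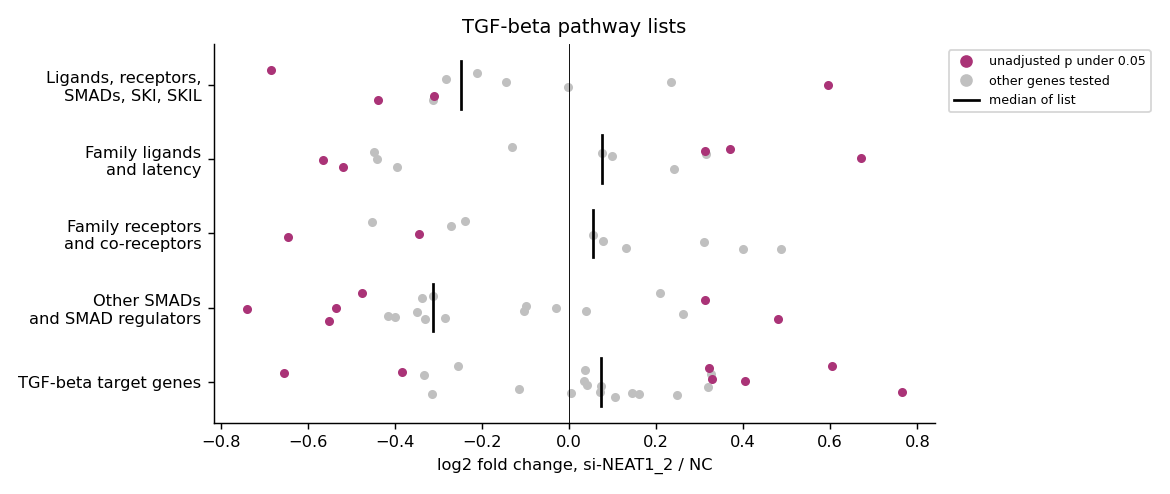
Log2 fold change of si-NEAT1_2 over NC (horizontal axis) for the 10 genes (top) and the 4 lists of other pathway genes. Each point is a gene, purple where its unadjusted p was under 0.05 by edgeR's quasi-likelihood test, vertical scatter within a list has no meaning, and black bars are list medians. The list of other SMADs and SMAD regulators has its median at -0.31, and that of the target genes at 0.07.

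The group table gives a single FPKM per group, with no replicates and no test, and no library has a total count as low as its totals, 17678761 (NC) and 19579897 (si-NEAT1_2). For TGFB1 it lists 49.4 in NC and 54.3 in si-NEAT1_2, both above all 6 libraries. TGFB2 is listed at 0.72 and 0.32, both below all 6 libraries and 2.25-fold apart. These values keep the direction of the libraries for both ligands.

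The receptors go the other way in the group table. TGFBR2 is listed at 30.4 in NC and 56.3 in si-NEAT1_2, 1.86-fold higher, and TGFBR1 at 8.27 and 10.4, while both had lower means in the si-NEAT1_2 libraries. SMAD3 is listed at 39.8 in NC, inside the range of the NC libraries, and at 19.8 in si-NEAT1_2, 2.01-fold lower and below every library, where the mean of the libraries was higher in si-NEAT1_2. SKI is listed at 12.0 and 22.2.

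For SMAD2 (22.4 and 14.5), SMAD4 (6.18 and 4.32), SMAD7 (1.78 and 1.46) and SKIL (5.64 and 4.49) the table lists the lower value in si-NEAT1_2, as the libraries do. SMAD7 differed most from the libraries, whose NC mean was 17.5 times the NC value of the table. In all, 9 of the 10 NC values lay outside the range of the 3 NC libraries (background 86.9% of the 11028 genes tested whose mean FPKM over the NC libraries was at least 1). A ratio of at least 2 was found higher for 0 of the 10 genes (background 11.9% of 17220) and lower for 2, TGFB2 and SMAD3 (background 22.3%). The direction was that of the libraries for 6 genes and the opposite for 4, TGFBR1, TGFBR2, SMAD3 and SKI. SKI, however, had a log2 fold change of only -0.0022 in the libraries, and the sign of TGFBR1 there rested on NC replicate 2. The share of all genes with the same direction was not calculated. How the group table relates to the libraries is not given in the sources used here.

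**Figure D5:**
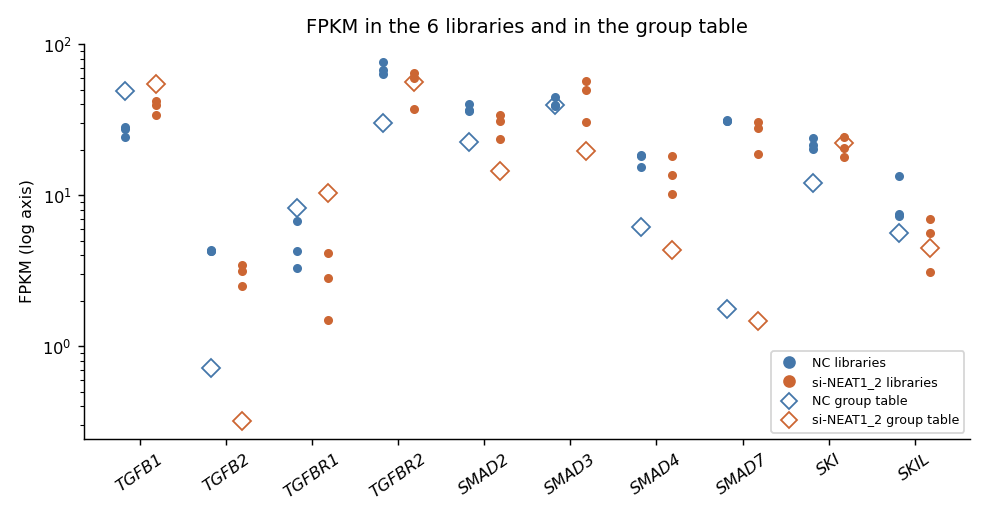
FPKM (log axis) of the 10 genes in the 3 NC (blue) and 3 si-NEAT1_2 libraries (orange, filled points) and in the group table (open diamonds, 1 value per group). Both diamonds lie below all libraries for TGFB2 (0.72 and 0.32), SMAD7 (1.78 and 1.46), SMAD4 (6.18 and 4.32) and SMAD2 (22.4 and 14.5). They lie above all libraries for TGFB1 (49.4 and 54.3) and TGFBR1 (8.27 and 10.4).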

How the data were processed

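K1 mRNA was enriched with oligo(dT) beads and sequenced. The paper names TopHat2 and RSEM, whereas the submitters' processing notes list fastp 0.18.0, Bowtie2 2.2.8, HISAT2, StringTie 1.3.1 and GRCh38. The authors deposited an expected count (not normalized, 9.19% to 9.61% of values not whole) and an FPKM value per gene for each library and each group. The deposited FPKM values are scaled for transcript length and library size. Library totals were 22798631 to 27066025, of which 0.336% to 0.447% fell in 838 unannotated loci, kept in the fit.

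Samples were grouped by their labels. After rounding of the expected counts, edgeR 4.0.16 (R 4.3.3) was used for filterByExpr (13109 features kept), TMM scaling and its quasi-likelihood test, with p-values adjusted over all features. Alternatives used limma 3.58.1 on log2(FPKM + 1) and log2(FPKM + 0.1), and DESeq2 1.42.0, together with other normalizations and filters, a replicate block, the label code as a covariate, offsets per library for GC content and length (splines, 5 degrees of freedom) and the omission of each library. GC content and length are those of the GENCODE 29 protein-coding transcript nearest to the length behind the FPKM. Positions are from GENCODE 29 (GRCh38) and promoter windows from RefSeq (GRCh38.p14). The methods speak of pairs of NC and si-NEAT1_2 cells without saying which libraries form a pair, and same-numbered libraries did not deviate together (correlations of deviations -0.282, -0.365 and -0.00797).

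The members and lists were chosen with earlier results of these data known. From each list the 2 genes with the lowest unadjusted p under 0.05 and an average log2 CPM of at least 2 were named, since 0 were called. One gene named by this rule is not reported here.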

Additional observations from a re-analysis of the deposited data

How the results depend on the processing

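Of the 10 genes 0 were called, as main result and under all 17 alternatives, and of the other pathway genes likewise 0. The number of the 10 genes at an unadjusted p under 0.05 was 4. It stayed within 1.5 times that count under 14 of the 17, with 2 under the replicate block and 2 to 6 on leaving out a library. The share of all genes at that level also moved. The count of 6 came with 33.0% of all genes, once si-NEAT1_2 replicate 1 was dropped. Dropping NC replicate 2 gave 2 beside 8.08%, and dropping si-NEAT1_2 replicate 3 gave 2 beside 16.5%. The 2 quantities did not always move together, since dropping si-NEAT1_2 replicate 2 gave 5 beside 15.9%. The replicate block, with the replicate number of the labels as a term, left 11.7% of all genes at an unadjusted p under 0.05 and 0 called, but the labels name no shared source for a number. The paper's methods speak of pairs of cells without saying which libraries they are, and no same-numbered pair correlated above 0.

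The number of genes called among all tested was 0, and it was 1 without TMM, 18 without a filter, 60 with DESeq2 (15 higher, 45 lower), 1 with limma on log2(FPKM + 0.1), 5 with the GC and length correction, 1 with that correction and the replicate block, and 0 to 216 on leaving out a library, with 216 (32 higher, 184 lower) without si-NEAT1_2 replicate 1 and 3 without si-NEAT1_2 replicate 2. The median log2 fold change of the 10 genes, -0.25, was -0.00020 with the GC and length correction, 0.0039 with that correction and the replicate block, -0.37 with the label code, and -0.37 to -0.11 on leaving out a library.

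Signs turned for TGFB2 with the GC and length correction (0.027, and 0.033 with the replicate block as well), TGFBR1 (0.29 and 0.29), and SMAD4 (0.28 and 0.27). On leaving out a library TGFBR1 had -0.50 to 0.0010 (the highest without NC replicate 2) and SKI had -0.11 to 0.055, above 0 without NC replicate 1 (0.055), si-NEAT1_2 replicate 1 (0.030) and si-NEAT1_2 replicate 2 (0.054). TGFB1 had an adjusted p of 0.0205 with DESeq2 and 0.0493 in edgeR's test without si-NEAT1_2 replicate 1, within a range of 0.0205 to 0.558 over the alternatives, and its log2 fold change was 0.33 to 0.69. SMAD3 was higher under all 17 alternatives (0.10 to 0.39), which share the same libraries. Its adjusted p was 0.77 by limma on log2(FPKM + 0.1). Its difference in log2 CPM was -0.02 within L2 and 0.27 within L3, each from 1 si-NEAT1_2 library. The TGFB2 ratio in the group table is of values under 1, and with an FPKM of at least 1 in a column, a limit chosen after the data were seen, 1 gene was past 2-fold in place of 2. The median of the list of other SMADs and SMAD regulators was -0.45 with the label code, and that of the ligand list was -0.03 with limma on log2(FPKM + 1). The causes of these shifts were not tested.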

Other observations

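The genes whose log2 CPM over the 6 libraries was most like that of TGFB1, among 5632 genes whose mean log2 CPM was 5 or more, were SQSTM1 (Pearson's r = 0.998), an autophagy receptor, CD276 (0.997), an immune checkpoint protein, and LAMB3 (0.996), a laminin subunit. SQSTM1 was at 553.6, 440.8 and 524.4 CPM in NC and at 648.7, 866 and 851.8 CPM in si-NEAT1_2 replicates 1 to 3, without overlap and with the lowest si-NEAT1_2 value in replicate 1, as for TGFB1. In all, 198 genes had an r above 0.95 with TGFB1. For TGFB2 the nearest of 5633 genes were LMBR1 (0.991), CAP2 (0.990) and TBC1D9 (0.988), and 70 genes had an r above 0.95. These values come from 6 libraries that share the first principal component, and they are given as a description.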
